A study of Mus musculus with 8 samples.

Results

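A set of 8 protein tyrosine phosphatase genes, of the 43548 genes in the table, was described in platelet RNA from TNFdARE and control mice. They are Ptp4a1, Ptp4a2 and Ptp4a3, the cytosolic enzymes Ptpn6, Ptpn11, Ptpn12 and Ptpn18, and the receptor-type Ptprj. The genes were taken by symbol. Ptp4a2 and Ptpn12 were chosen by their FPKM, each being higher in all 4 TNFdARE mice than in any control, so their genotype difference is given as a description and without a test. RNA came from washed platelets of 4 TNFdARE mice and 4 control littermates, aged 8 to 12 weeks and at baseline. Each group held 2 females and 2 males by the labels. TNFdARE mice lack the AU-rich element of the Tnf transcript in all their cells, so TNF-α is constitutively high and joint and gut inflammation develop. The controls are littermates without that allele, and the line had been backcrossed to C57BL/6J. The labels did not agree on the number of mice, giving both 3 and 4 per group, and 8 libraries were present in the table. A treatment text in the labels also names males of 5.2 months and a bone, which fits neither the age given for these mice nor the females among them.

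Protein tyrosine phosphatases remove phosphate from tyrosines that the kinases of platelet activation have phosphorylated. All 8 proteins share a catalytic loop in which a cysteine attacks the phosphate and an arginine holds it, but they sit at different points of the cell. The PTP4A proteins, also called PRL phosphatases, are small prenylated enzymes of membranes that bind CNNM magnesium transport proteins. Ptpn6 encodes SHP-1 and Ptpn11 encodes SHP-2, which dock through SH2 domains on receptors with inhibitory tyrosine motifs. Ptpn12 encodes PTP-PEST and Ptpn18 a related PEST-type phosphatase, which act on cytoskeletal adaptors. Ptprj encodes CD148, the receptor phosphatase that keeps Src family kinases of platelets active. Platelets have no nucleus, so their RNA is inherited from megakaryocytes.

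The catalytic loop is the stretch that the 8 genes have in common, and it also shows how close the pseudogene copy of Ptp4a2 is to its parent. Each line below gives the 8 codons from the histidine before the cysteine to the arginine, 5′ to 3′ on the coding strand, with the cysteine and arginine codons in capitals (GENCODE M21, mm10).
Ptp4a1: catTGTgtcgcaggccttggcAGA
Ptp4a2: catTGTgttgcaggattgggaAGG
Ptp4a3: cacTGTgtggcgggcctgggaAGG
Ptpn12: catTGCagtgcaggctgtggaCGA
Ptpn18: cacTGCagtgctggctgcggaCGA
Ptpn6: catTGCagcgctggcatcggcCGC
Ptpn11: cacTGCagcgctgggattggcCGG
Ptprj: catTGCagtgctggggttggaAGG
Gm13422: catTGTgtttcaggattgggaAGG

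Against the Ptp4a2 stretch, Ptp4a3 differed at 5 of 24 bases and Ptp4a1 at 6. Ptprj differed at 7 bases, Ptpn12 at 8, Ptpn18 at 10, and Ptpn6 and Ptpn11 at 11 each. The cysteine codon was TGT in the 3 PTP4A genes and TGC in the other 5. In every gene the stretch crossed an exon junction, which fell after base 23 in the PTP4A genes and after base 8 in the other 5 genes. The Ptp4a2 stretch lies in exons 4 to 5 of 6 at chr4:129845170-129846465 on the plus strand, a span that includes the intron between them. The Ptpn12 stretch lies in exons 8 to 9 of 18 at chr5:21005400-21009449 on the minus strand. The stretches of Ptpn18, Ptpn11 and Ptprj span chr1:34470335-34471508 (plus strand), chr5:121143614-121144537 (minus strand) and chr2:90439977-90440632 (minus strand). Those of Ptp4a1, Ptp4a3 and Ptpn6 span chr1:30944006-30944558 (minus strand), chr15:73755402-73756028 (plus strand) and chr6:124722063-124724964 (minus strand). Gm13422, a processed pseudogene of 504 bases at chr2:23235236-23235739 on the plus strand, held the stretch at chr2:23235533-23235556 with 1 difference from Ptp4a2. Over the whole coding sequence, Ptp4a2 was 97.2% identical to Gm13422, 76.2% identical to Ptp4a1 and 68.6% identical to Ptp4a3.

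The values were read as FPKM, fragments per length of transcript and per library total of mapped fragments, so levels are per length and can be compared between genes. The number of reads behind each value is unknown. Genes above 0 numbered 1479 to 2742 in the control libraries and 818 to 4917 in the TNFdARE libraries, and TNFdARE mice 1 and 4 had the fewest of their group, with 818 and 1225. A single gene, AY036118, took 33.7% to 67.7% of the summed FPKM. Each of the 19 platelet and megakaryocyte markers was above 0 in some library, and they summed to 1335 to 1832 FPKM in controls and 1274 to 1404 FPKM in TNFdARE mice. The summed FPKM of 30 erythroid markers reached 806, 897, 2233 and 868 for controls 1 to 4, against 6976, 1148, 2974 and 14740 for TNFdARE mice 1 to 4. Ptprc, the leukocyte marker CD45, was at 0 in all 8 libraries, while the other 5 of 6 pan-leukocyte markers were above 0 in some mouse. Most of that signal was Laptm5, at 26.5 to 34.5 FPKM in controls and 8.05 to 31 FPKM in TNFdARE mice. Of 14 neutrophil markers 9 were at 0 throughout, as were 8 of 12 for T and NK cells and 6 of 11 for B cells. The neutrophil sum was 0 to 3.66 FPKM in controls and 0 to 10.3 FPKM in TNFdARE mice. Its highest value was S100a9 in TNFdARE mouse 4, and that gene was at 0 in all other libraries. The T and NK cell sum was at most 1.02 FPKM in controls and 0.871 FPKM in TNFdARE mice. The B cell sum was 0 to 37.9 FPKM in controls and 0.129 to 14.4 FPKM in TNFdARE mice. For monocytes and macrophages, 9 of 11 markers were at 0 throughout. Of the other 2, Lyz2 held 30.8 to 50.3 FPKM in controls and 11.9 to 35.8 FPKM in TNFdARE mice. Csf1r was at 0 in all controls and at 0 to 0.276 FPKM in TNFdARE mice. In bulk RNA, a change in the share of one cell type and a change in RNA per cell cannot be told apart.

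Of the 8 phosphatase genes, 5 had a mean of at least 1 FPKM over the 8 mice and entered the fit across 1534 genes. These were Ptp4a2, Ptpn12, Ptpn11, Ptpn18 and Ptprj. Ptp4a3 and Ptpn6 had lower means, and Ptp4a1 was listed at 0 in every library. Of the 8 genes, 2 were higher in all TNFdARE mice than in any control, the number the choice of genes fixed. The same held for 13 genes (0.847%) of the 1534, and groups did not overlap in either direction for 51 genes (3.32%).

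**Figure D1:**
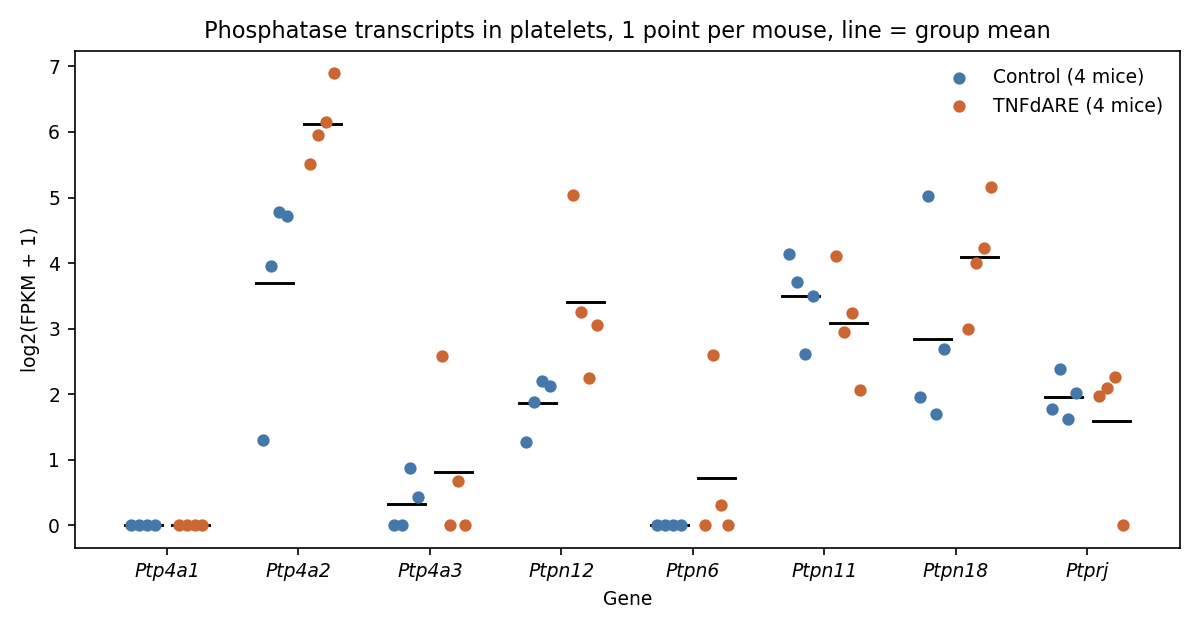
Level of each of the 8 phosphatase transcripts in each mouse, as log2(FPKM + 1) on the vertical axis, with controls in blue, TNFdARE mice in orange and the group mean as a line. Ptp4a2 and Ptpn12 have no overlap between the groups, Ptpn18 has 1 high control, and Ptp4a1 lies at 0 in all 8 mice.

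Ptp4a2 (ENSMUSG00000028788, chr4:129811219-129850003, plus strand) encodes PRL-2, a phosphatase of the cell cortex and endosomal membranes. Its level in control mice 1 to 4 was 1.47, 14.5, 26.6 and 25.4 FPKM. In TNFdARE mice 1 to 4 it was 44.7, 61.0, 69.8 and 118 FPKM. The lowest TNFdARE value was 1.68-fold the highest control value, and control mouse 1 lay far below the other 3 controls. The group means were 17.0 ± 11.7 FPKM in controls and 73.4 ± 31.5 FPKM in TNFdARE mice (SD, n = 4 each), a ratio of 4.31. On the log2(FPKM + 1) scale the fitted difference was 2.43 with a standard error of 0.73, the fourth highest of the 1534 genes (rank 4). Without control mouse 1 the difference was 1.64, and without TNFdARE mice 1 and 4 together it was 2.36.

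The place of Ptp4a2 among the genes of a library also varied. In control mouse 1 it exceeded only 27.6% of the genes above 0. In the other 3 controls it exceeded 87.4% to 94.9% of them, and in the TNFdARE mice 87.7% to 98.7%. The ranges of the latter 2 sets of mice overlapped. As a share of the summed platelet markers of the same library, Ptp4a2 was 0.0980%, 1.02%, 1.45% and 1.91% in control mice 1 to 4. It was 3.51%, 4.35%, 5.04% and 8.54% in TNFdARE mice 1 to 4. The marker sum varied little between libraries, so this scale restates the separation by which Ptp4a2 was chosen.

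The copy Gm13422 was listed at 0 in 5 libraries and at 2.76 FPKM in control mouse 2, 1.24 FPKM in TNFdARE mouse 3 and 19.0 FPKM in TNFdARE mouse 4. Reads can be split between Ptp4a2 and a copy this similar, which makes the Ptp4a2 levels of control mouse 2 and TNFdARE mouse 4 in particular uncertain. Added together, the 2 genes gave 1.47, 17.3, 26.6 and 25.4 FPKM in control mice 1 to 4. The sums in TNFdARE mice 1 to 4 were 44.7, 61.0, 71.1 and 137 FPKM.

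The erythroid sum was higher in TNFdARE mice 1, 3 and 4 than in any control. Of 12 erythroid markers tested, 9 had a log2 difference above 0 and the median was 1.52, beside 37.0% above 0 and a median of -0.30 over all 1534 genes. Fech, 1 of the 9, reached a mean of 1 FPKM through the TNFdARE mice. Under quantile normalization all 12 were above 0. With sample weights 10 of the 12 were above 0 and their median was 0.87, beside -0.01 over all genes. In each group the mouse with the highest erythroid sum also had the highest Ptp4a2 level, control mouse 3 (2233 and 26.6 FPKM) and TNFdARE mouse 4 (14740 and 118 FPKM). TNFdARE mouse 1, with the next highest erythroid sum of 6976 FPKM, had the lowest Ptp4a2 level of its group, at 44.7 FPKM. TNFdARE mouse 2 had an erythroid sum of 1148 FPKM, above 3 of the 4 controls and below control mouse 3, with Ptp4a2 at 61.0 FPKM. The part of erythroid RNA in the Ptp4a2 difference was not tested.

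**Figure D2:**
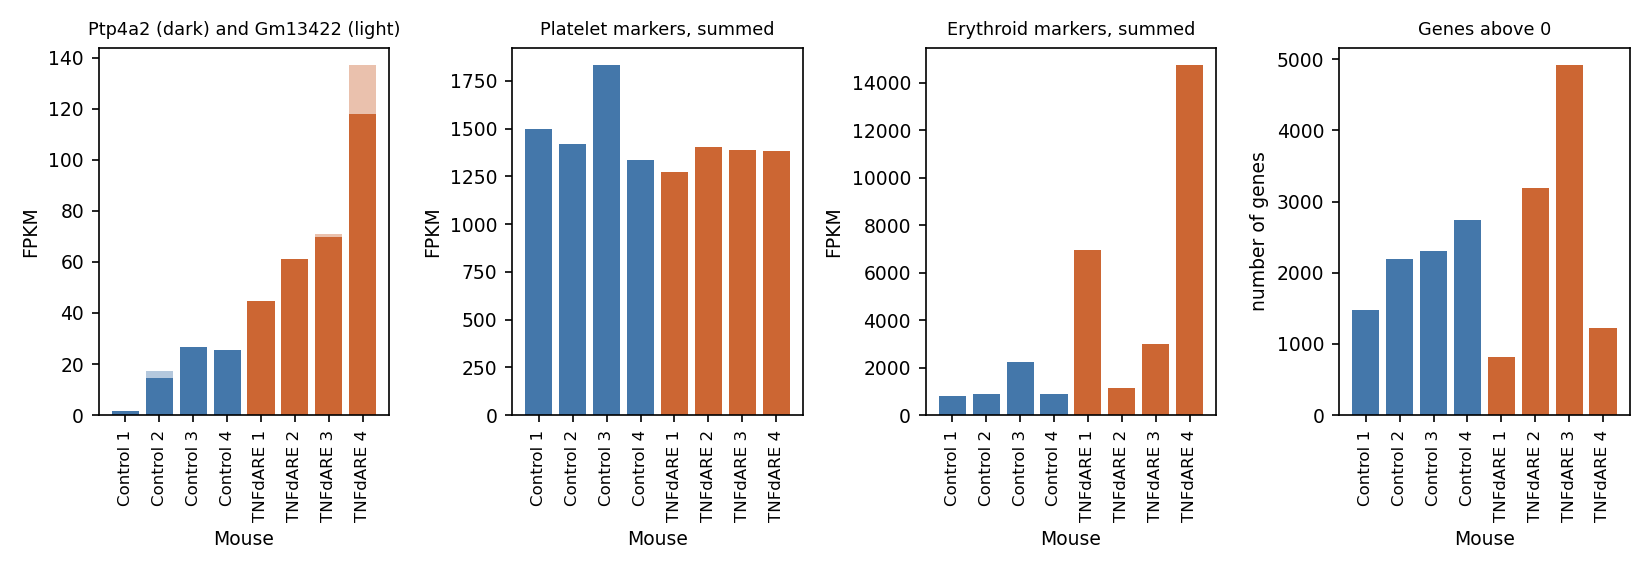
Bars give, for each mouse, the FPKM of Ptp4a2 (dark) with its pseudogene copy Gm13422 stacked on it (light), the summed FPKM of platelet markers, the summed FPKM of erythroid markers and the number of genes above 0 (controls blue, TNFdARE orange). Ptp4a2 is at 44.7 FPKM or more in the TNFdARE mice and at 26.6 FPKM or less in the controls, and the erythroid sum is above every control in TNFdARE mice 1, 3 and 4 and at 1148 FPKM in TNFdARE mouse 2, above 3 of the 4 controls. The part of erythroid RNA in Ptp4a2 was not tested.

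Ptp4a1 and Ptp4a3, the other PRL phosphatases, were near the floor of the table. Ptp4a1 (ENSMUSG00000026064, chr1:30940302-30949309, minus strand) was listed at 0 in all 8 mice. GENCODE M21 places a further gene model of the same name over it, which the table does not list, and 5 processed pseudogenes are near copies of its coding sequence. Of these, Gm15801 and Gm8783 are 100% identical over 522 bases. Gm8783 held 1.29 FPKM in TNFdARE mouse 1 and 0.581 FPKM in TNFdARE mouse 3, Gm15801 held 1.35 FPKM in TNFdARE mouse 1, and all other values of the 5 copies were 0. The value of 0 for Ptp4a1 is therefore uncertain. Ptp4a3 (ENSMUSG00000059895, chr15:73723145-73758766, plus strand) was at 0, 0, 0.832 and 0.349 FPKM in control mice 1 to 4 and at 4.96, 0, 0.601 and 0 FPKM in TNFdARE mice 1 to 4. The groups overlapped, and 1 TNFdARE mouse carried most of the signal (two-sided exact permutation p = 0.71, n = 4 against 4, for which the smallest possible p is 0.029). No near copy of Ptp4a3 was found. Of the 3 PRL genes as listed, Ptp4a2 was the one above 0 in every library.

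Ptpn12 (ENSMUSG00000028771, chr5:20986645-21055911, minus strand) was at 1.41, 2.69, 3.59 and 3.38 FPKM in control mice 1 to 4. In TNFdARE mice 1 to 4 it was at 31.8, 8.58, 3.77 and 7.32 FPKM. The groups were separated by 0.182 FPKM, the distance from control mouse 3 to TNFdARE mouse 3 (1.05-fold), and TNFdARE mouse 1 was far above the rest. The means were 2.77 ± 0.983 FPKM in controls and 12.9 ± 12.8 FPKM in TNFdARE mice (SD, n = 4 each), a ratio of 4.65. The fitted log2 difference was 1.53 with a standard error of 0.69 (rank 48 of 1534), and it fell to 0.99 without TNFdARE mouse 1, the library with the fewest genes above 0, and to 0.89 without TNFdARE mice 1 and 4. With sample weights, which give less weight to the more variable libraries, it was 0.70. As a share of the platelet markers, Ptpn12 was 0.0943% to 0.253% in controls and 0.272% to 2.50% in TNFdARE mice. No near copy of Ptpn12 was found, but an unclassified gene model, Gm43216, lies over it on the opposite strand.

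Ptpn18 (ENSMUSG00000026126, chr1:34459762-34475733, plus strand), the PEST-type relative of Ptpn12, lay just outside the pattern used to pick those 2 genes. Its level was 2.90, 31.5, 2.25 and 5.48 FPKM in control mice 1 to 4 and 6.97, 15.0, 17.8 and 34.9 FPKM in TNFdARE mice 1 to 4. Of the 4 controls, 3 were below every TNFdARE mouse, and control mouse 2 was above 3 of the 4 TNFdARE mice. The log2 difference was 1.25 with a standard error of 0.78 and did not pass the test (limma, unadjusted p = 0.13, Benjamini-Hochberg adjusted p = 0.86). The two-sided exact permutation test gave p = 0.17. Leaving out 1 mouse moved the difference from 0.87 without control mouse 3 (limma, unadjusted p = 0.309) to 1.98 without control mouse 2 (limma, unadjusted p = 0.0169). Over all genes, 69 (4.50%) of 1534 had an unadjusted p under 0.05, 27 (1.76%) higher and 42 (2.74%) lower in TNFdARE mice. The balance turned to 34 higher and 25 lower under quantile normalization and to 74 and 37 with sample weights. By limma 0 had an adjusted p under 0.05, the smallest being 0.86, and 0.17 with sample weights. An antisense transcript, Gm28417, overlaps Ptpn18 and held 10.1, 0, 13.1 and 3.03 FPKM in control mice 1 to 4 and 0, 7.87, 4.38 and 0.293 FPKM in TNFdARE mice 1 to 4. Strandedness of the libraries is not given in the sources used here, so reads of the 2 genes may not be told apart. Stretches of at least 150 bases of Ptpn18 transcripts were at least 95% identical to parts of 18 genes, Gm28417 included, so its level is uncertain.

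Ptpn11 (ENSMUSG00000043733, chr5:121130533-121191397, minus strand), which encodes SHP-2, was well detected in both groups. Its level was 16.7, 12.1, 5.13 and 10.3 FPKM in control mice 1 to 4 and 16.2, 6.73, 8.42 and 3.2 FPKM in TNFdARE mice 1 to 4. The groups overlapped over most of their range. The means were 11 ± 4.76 and 8.65 ± 5.51 FPKM (SD, n = 4 each), and the log2 difference was -0.40 with a standard error of 0.63 (limma, adjusted p = 0.89, exact permutation p = 0.49). It was -0.74 without TNFdARE mouse 1 and -0.06 without TNFdARE mouse 4. Ptpn6 (ENSMUSG00000004266, chr6:124720707-124738714, minus strand), which encodes SHP-1, was listed at 0 in the 4 controls. In TNFdARE mice 1 to 4 it was at 0, 5.03, 0.233 and 0 FPKM, so the groups shared the value 0 (two-sided exact permutation p = 0.43). The antisense gene Gm20531, which overlaps Ptpn6, was at 1.28 FPKM in the same TNFdARE mouse 2 and at 2.74 FPKM in control mouse 3, and at 0 elsewhere.

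Ptprj (ENSMUSG00000025314, chr2:90429754-90580647, minus strand), the gene for CD148, was at 2.41, 4.22, 2.09 and 3.07 FPKM in control mice 1 to 4. It was at 2.94, 3.28, 3.79 and 0 FPKM in TNFdARE mice 1 to 4. Apart from the 0 of TNFdARE mouse 4, all values lay between 2.09 and 4.22 FPKM. The log2 difference was -0.37 with a standard error of 0.71 (limma, adjusted p = 0.90, exact permutation p = 0.77), and it was 0.16 without TNFdARE mouse 4 and 0.06 under quantile normalization. Its 3 pseudogene copies are partial, 98.7% to 99.3% identical over 876, 929 and 300 bases, beside 4050 coding bases of Ptprj. The shortest, Gm18953 of 300 bases, held 22.9, 1.64, 2.63 and 1.27 FPKM in control mice 1 to 4. In TNFdARE mice 1 to 4 Gm18953 was at 10.5, 5.84, 7.54 and 0 FPKM. The copy was thus listed higher than Ptprj in 5 of the 8 libraries, and how the reads were divided between them is not known. Of Ptpn11, Ptpn18 and Ptprj, the 3 genes that the choice did not fix and that could be tested, 0 passed an unadjusted p under 0.05.

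**Figure D3:**
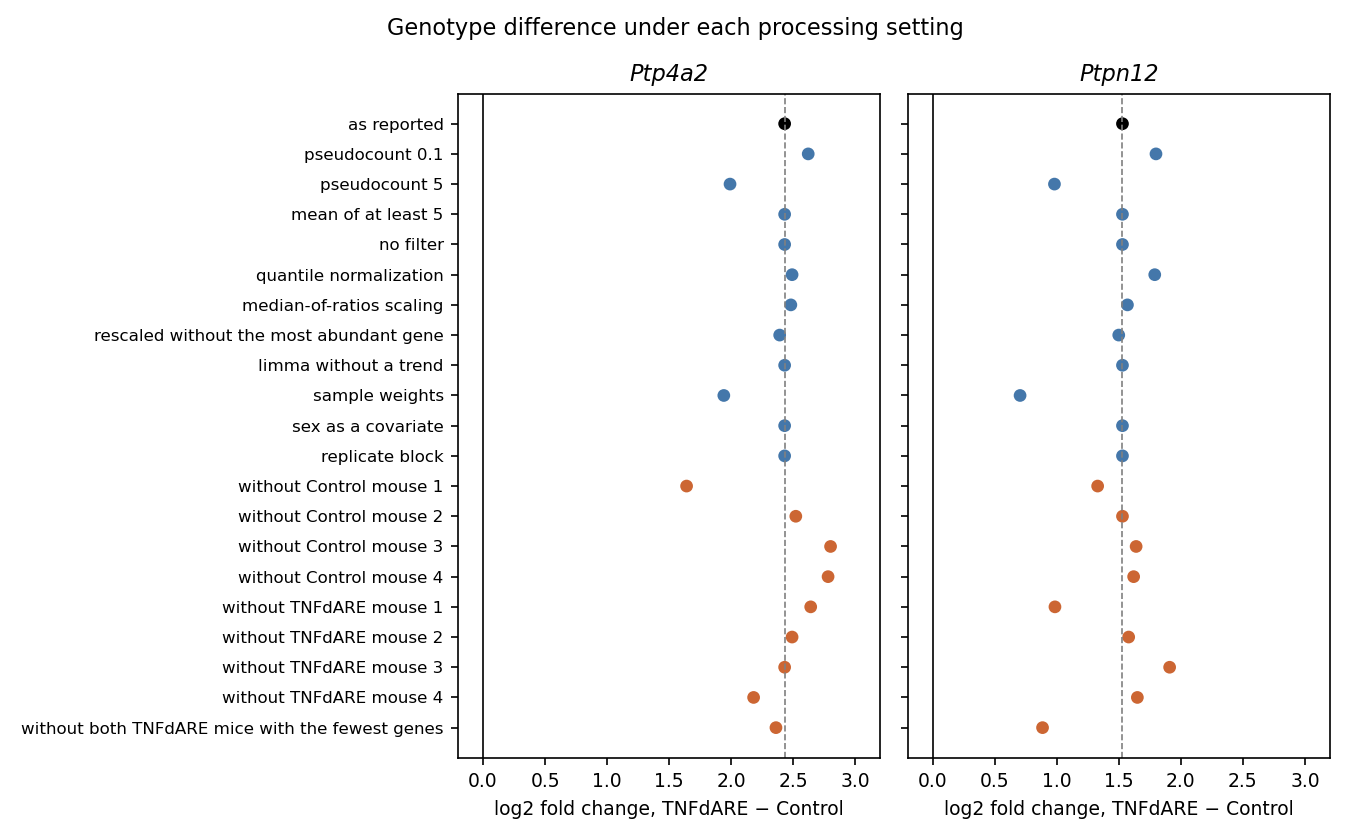
Log2 difference, TNFdARE minus control, of Ptp4a2 (left) and Ptpn12 (right) under each processing setting, with the reported value in black and as a dashed line and the settings that leave mice out in orange. Values of Ptp4a2 run from 1.64 to 2.80 and those of Ptpn12 from 0.70 to 1.91. The sign is fixed by how the 2 genes were chosen.

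The order of the 8 genes by mean level is given for each group as a description, since the places of Ptp4a2 and Ptpn12 in TNFdARE mice follow in part from their choice. In controls it was Ptp4a2 (17.0 FPKM), Ptpn11 (11), Ptpn18 (10.5), Ptprj (2.95), Ptpn12 (2.77) and Ptp4a3 (0.295), with Ptp4a1 and Ptpn6 at 0. Neighbours in this order were compared within each mouse as a difference of log2(FPKM + 1). Only the step from Ptpn12 to Ptp4a3 exceeded its spread, at 1.55 ± 0.296 (SD, n = 4), with Ptpn12 higher in 4 of 4 mice. In TNFdARE mice the order was Ptp4a2 (73.4 FPKM), Ptpn18 (18.7), Ptpn12 (12.9), Ptpn11 (8.65), Ptprj (2.50), Ptp4a3 (1.39), Ptpn6 (1.32) and Ptp4a1 (0). There, Ptp4a2 exceeded Ptpn18 by 2.03 ± 0.342 and Ptpn11 exceeded Ptprj by 1.51 ± 0.686, each in 4 of 4 mice, and the other neighbours did not differ beyond their spread. Ptp4a2 was the highest of the 8 in all 4 TNFdARE mice and in control mice 3 and 4. Ptpn11 was the highest in control mouse 1 and Ptpn18 in control mouse 2.

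The choice of genes did not use sex, so females and males were compared with genotype in the model. No phosphatase differed by sex beyond the spread between mice. Ptp4a2 averaged 51.5 ± 50.7 FPKM in females and 38.9 ± 24.1 FPKM in males (SD, n = 4 each), with a log2 difference, female minus male, of -0.38 (standard error 0.75, limma, adjusted p = 0.95). The mean was higher in females while the log2 difference was below 0, and without control mouse 1, a female, the latter was 0.50. Ptpn12 averaged 5.17 ± 3.35 FPKM in females and 10.5 ± 14.2 FPKM in males, with a log2 difference of -0.41 (standard error 0.73, adjusted p = 0.95 by limma). The log2 differences of Ptprj, Ptpn11 and Ptpn18 were -0.59, -0.25 and -0.03, with limma adjusted p-values of 0.95, 0.97 and 0.99. Over all genes 39 (2.54%) of 1534 had an unadjusted p under 0.05 by sex and 0 passed adjustment. For Ptpn11, Ptpn18 and Ptprj the genotype difference did not pass a test of its dependence on sex (limma interaction, adjusted p = 0.92, 0.92 and 0.95), with 2 mice per sex and genotype. Over all genes 54 (3.52%) had an unadjusted interaction p under 0.05 and 0 an adjusted one.

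Few other enzymes of the same fold could be tested. Of 64 further tyrosine, dual-specificity and lipid phosphatases, 41 (64.1%) were listed at 0 in all 8 mice, beside 84.9% of all genes in the table, and 3 had a mean of at least 1 FPKM. Ptpn1, the phosphatase PTP1B of the endoplasmic reticulum, was at 3.42, 0.468, 3.74 and 2.66 FPKM in controls 1 to 4 and at 0, 6.02, 4.16 and 5.22 FPKM in TNFdARE mice 1 to 4 (log2 difference 0.25, limma, adjusted p = 0.95). The groups overlapped, with TNFdARE mouse 1 at 0. Dusp23 and Dusp3, small dual-specificity phosphatases, had log2 differences of -1.04 and -0.73 (adjusted p = 0.86 each by limma), and both were at 0 in TNFdARE mouse 1. Of 20 other receptor phosphatases 18 were at 0 throughout, and Ptprn and Ptpra did not exceed 0.985 FPKM. The 4 CNNM genes, whose products bind the PRL phosphatases, were all listed at 0 in all 8 mice.

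The partners of the other phosphatases were described by list. SHP-1 and SHP-2 dock on receptors with inhibitory tyrosine motifs. Of 5 tested genes listed as such receptors, 1 had a log2 difference above 0 and 4 below, with a median of -0.11 beside -0.30 over all genes. Mpig6b, the inhibitory receptor G6b-B of platelets, was level at 29.8 ± 6.85 FPKM in controls and 28 ± 8.04 FPKM in TNFdARE mice (SD, n = 4 each). Its log2 difference was -0.11 with a standard error of 0.48 (limma, adjusted p = 0.97). Treml1, a granule receptor, was at 13.1 to 33.1 FPKM in controls and at 0, 38.1, 22.8 and 51.1 FPKM in TNFdARE mice 1 to 4, with a log2 difference of -0.59 although its mean was higher in TNFdARE mice. Esam, an adhesion molecule of platelet contacts, was the 1 gene of the 5 above 0, with a log2 difference of 0.59. With sample weights, 4 of the 5 genes were above 0, and without TNFdARE mouse 4 the median was 0.21. Of 13 adaptors of SHP-2 signalling, 11 were above 0 in some mouse and none reached a mean of 1 FPKM. The highest was Grb2, which links receptors to Ras, at 5.04 FPKM in TNFdARE mouse 1 and at most 0.448 FPKM elsewhere. Gab1 and Dok1 followed, at no more than 1.42 FPKM.

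Among 14 genes listed for PTP-PEST, as its substrates, partners or cytoskeletal neighbours, 5 were tested. All 5 had a log2 difference below 0, with a median of -1.01 beside -0.30 over all genes. Wipf1 and Vasp reached a mean of 1 FPKM through the controls, so the count favours values below 0. The median was -0.56 without the filter, -0.58 under quantile normalization and -0.57 with sample weights, under which 1 of the 5 was above 0. It ranged more widely with the pseudocount, from -1.89 at 0.1 to -0.43 at 5. None of the 5 passed an unadjusted p under 0.05. Vcl, the gene for vinculin, was at 4.21, 4.40, 2.66 and 4.36 FPKM in control mice 1 to 4 and at 1.92, 2.61, 2.20 and 0 FPKM in TNFdARE mice 1 to 4. The groups did not overlap, as was the case in the lower direction for 38 (2.48%) of the 1534 genes. Its log2 difference was -1.01 with a standard error of 0.67 (limma, adjusted p = 0.86). Tgfb1i1, which encodes the paxillin relative HIC-5, had a log2 difference of -1.27 and was at 2.56 to 8.94 FPKM in controls and 0 to 3.00 FPKM in TNFdARE mice. Wipf1, a partner of the Wiskott-Aldrich protein, had a log2 difference of -1.36, and its level of 24.7 FPKM in control mouse 1 was far above the 2.47 FPKM of the next library. TNFdARE mouse 1 was at 0 for Tgfb1i1, Wipf1, Ptk2b and Vasp, and TNFdARE mouse 4 for Vcl, Wipf1, Ptk2b and Vasp. These are the TNFdARE libraries with the fewest genes above 0. Leaving out TNFdARE mouse 1 moved the median of the list to -0.80, leaving out TNFdARE mouse 4 to -0.59 and leaving out both to -0.51.

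Of 21 tyrosine kinases, whose products phosphorylate what these phosphatases act on, 5 were tested, 4 with a log2 difference below 0 and 1 above. Jak2, 1 of those below 0, reached a mean of 1 FPKM through the controls. The median of -0.50 was not stable, at -0.05 without control mouse 2, 0.03 without the filter, and -0.04 under quantile normalization, where the median over all genes was -0.06. Lyn, the main Src family kinase here by mean level, was at 5.41, 16.4, 8.88 and 12.1 FPKM in control mice 1 to 4 and at 0.0501, 15.7, 13.5 and 13.2 FPKM in TNFdARE mice 1 to 4. TNFdARE mouse 1 stood alone, and the log2 difference of -0.50 did not pass the test (limma, adjusted p = 0.90). Fyn, a further Src family kinase, was at 9.65 ± 7.42 and 6.49 ± 4.44 FPKM in the 2 groups (SD, n = 4 each). Jak1, of cytokine signalling, was at 36.2 FPKM in control mouse 2 and at most 5.19 FPKM in every other mouse.

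**Figure D4:**
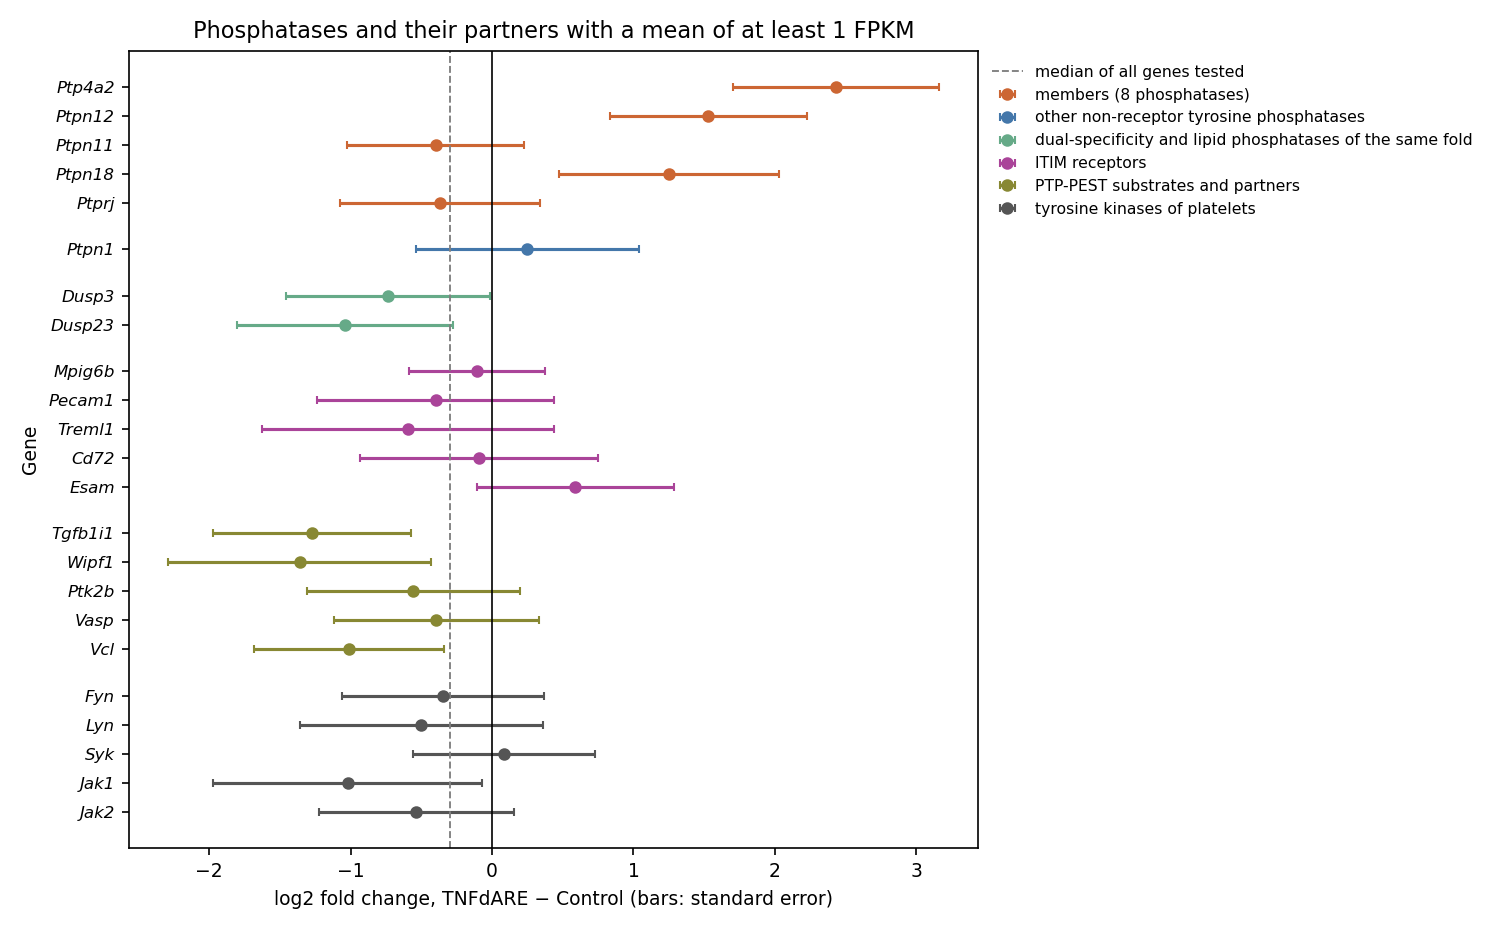
Log2 difference, TNFdARE minus control, with its standard error for the phosphatases and their partners with a mean of at least 1 FPKM, coloured by list, and the median of all 1534 genes as a dashed line at -0.30. Ptp4a2 lies highest at 2.43 and the 5 genes shown from the PTP-PEST list lie below 0, with a median of -1.01 that is -0.56 without the filter on low values.

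Genes with a pattern close to Ptp4a2 and Ptpn12 were ranked by Pearson correlation over the 8 mice of log2(FPKM + 1), after each genotype's mean was subtracted, among 520 genes. For Ptp4a2 these were Rsu1, a focal adhesion protein (r = 0.95), the tetraspanin Cd151 (0.89), the collagen receptor Gp6 (0.87), catalase, Cat (0.87), and Isca1, of iron-sulfur assembly (0.85). All 5 were lowest among the controls in control mouse 1. Without that mouse the r values were 0.63, 0.29, 0.43, 0.41 and -0.41. For Ptpn12 the genes were Cd9-ps (r = 0.89), Rpl19-ps11 (0.88), Tmem123 (0.86), Prdx5 (0.85) and Oaz2 (0.84). All 5 had their highest value in TNFdARE mouse 1, and r without it was 0.45, 0.59, 0.76, 0.24 and 0.68. The 2 genes of each correlation are measured in the same libraries and so share their depth and composition, and the correlations are given as a description.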

How the data were processed

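Platelet total RNA from 8 mice had been sequenced as 150 bp reads. The deposited values were read as FPKM, which the authors made with Cufflinks on mm10, as the submitters' processing notes name them. The unit is inferred from that tool and from the values, and the annotation is not given in the sources used here. Low values showed no step of a single read, so reads could not be recovered and depth is unknown. Columns were matched to mice by library name, and 0 columns were left unmatched. The phosphatases and all gene lists were chosen with earlier results of these data known.

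Values were tested as log2(FPKM + 1) in limma 3.58.1 (R 4.3.3) with a trend. Genes with a mean of at least 1 FPKM entered (1534 of 43548), and p-values were adjusted by Benjamini-Hochberg over all of them. A fold change on this scale understates changes of low genes. Sex was tested with genotype in the model. Permutation tests were exact and two-sided. In each list of related genes, those without overlap or with an unadjusted p under 0.05 and the 3 highest by mean were named, and the 5 most similar genes were named for Ptp4a2 and Ptpn12, among genes with a mean of at least 5 FPKM that were above 0 in at least 6 mice. The limma script was run on simulated normal values with large changes, which checks the code and not its use on values with many zeros. Positions and sequences came from GENCODE M21, and near copies were found with BLAST 2.17.0 (at least 95% identity over 150 bases). Alternatives varied the pseudocount, the filter, the scaling, the weights, the covariate, the block and the mice.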

Additional observations from a re-analysis of the deposited data

Results flagged for a closer look

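Within a group of 4 mice, a single value was marked where its gap to the nearest other mouse took a larger share of the group's range than Dixon's 95% critical value. This was so in 20 of 71 groups examined over 38 named genes. By chance about 1 in 20 groups is marked, but the genes were not chosen independently of these values. Those like Ptp4a2 or Ptpn12 were picked for a pattern in which 1 mouse stands apart, and many other groups hold values of 0, for which 1 detected mouse is enough.

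Among the 8 phosphatases, the gap share was 0.879 for Ptp4a3 in TNFdARE mouse 1 (4.96 FPKM, the next 0.601 FPKM), 0.954 for Ptpn6 in TNFdARE mouse 2 (5.03 FPKM, the next 0.233 FPKM) and 0.890 for Ptpn18 in control mouse 2 (31.5 FPKM, the next 5.48 FPKM).

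Among other phosphatases it was 1 for Ptpn3 in control mouse 4, for Acp1 in TNFdARE mouse 2, and for Ptpra and Ptpmt1 in control mouse 2, each the only mouse of its group above 0. For Ptpmt1 it was also 0.978 in TNFdARE mouse 1.

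Among partners, Grb2 had a gap share of 1 in control mouse 2 and 0.911 in TNFdARE mouse 1, Wipf1 0.905 in control mouse 1 and Jak1 0.863 in control mouse 2. Values below the rest of the group gave 0.889 for Vcl in control mouse 3 and 0.838 for Lyn in TNFdARE mouse 1.

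Among genes with a pattern like that of Ptp4a2, the share was 0.905 for Cd151 in TNFdARE mouse 4 and 0.900 for Gp6, below the rest, in control mouse 1. Among those like Ptpn12, TNFdARE mouse 1 was marked for Cd9-ps (0.910), Rpl19-ps11 (0.955), Prdx5 (0.855) and Oaz2 (0.897).

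The genotype difference of Treml1 was 4.11 higher on the log2 scale in females than in males (limma interaction, unadjusted p = 0.027, adjusted p = 0.92 over all genes). The male TNFdARE mouse 1 was at 0 for this gene, and with 2 mice per sex and genotype the difference did not pass adjustment.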

How the results depend on the processing

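The sign of the log2 differences of Ptp4a2 and Ptpn12 is fixed by their choice. Leaving out 1 mouse gave 1.64 to 2.80 for Ptp4a2 and 0.99 to 1.91 for Ptpn12. Chosen after seeing the data were the setting without TNFdARE mice 1 and 4 together, the scaling to platelet markers and the sum with Gm13422. Of the 8 phosphatases, 2 were higher in every TNFdARE mouse, which became 3 without control mouse 2 (with Ptpn18) and 3 without both TNFdARE mice (with Ptpn6). Ptpn18 passed an unadjusted p under 0.05 in 2 of 20 alternatives, without control mouse 2 (1.98) and with sample weights (1.21).

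The 69 genes with an unadjusted p under 0.05 became 36 under a minimum mean of 5 FPKM, 111 after sample weighting and 46 to 76 when 1 mouse was left out. In 20 alternatives 0 genes had an adjusted p under 0.05 by limma. Of the 69, 39.1% were higher in TNFdARE mice, against 57.6% under quantile normalization and 66.7% with sample weights. The median over all genes was -0.30 and moved to -0.06 and -0.01. The 13 genes higher in every TNFdARE mouse became 8 under a minimum mean of 5 FPKM, 39 under quantile normalization, 85 without both TNFdARE mice, and 16 to 38 without 1 mouse. The 38 lower ones became 18, 22, 69, and 45 to 81. Settings of the model itself do not change these counts and were not run for them. By sex, 39 genes became 15 under the minimum mean of 5 FPKM, 105 after sample weighting and 27 to 62 without 1 mouse, the highest without TNFdARE mouse 3.

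The log2 difference of Ptprj was -1.06 at a pseudocount of 0.1 and -0.11 at 5. It turned to 0.059 under quantile normalization and 0.10 with sample weights. Without 1 mouse it ranged from -0.59 to 0.16, and it reached 0.23 without both TNFdARE mice. Differences by sex also turned. Ptp4a2 ranged from -0.87 to 0.50 without 1 mouse, the highest without control mouse 1. Ptpn12 was 0.47 with sample weights, -0.96 to 0.16 without 1 mouse and 0.11 without both. Ptpn11 ranged from -0.65 to 0.11 without 1 mouse and was 0.34 without both. Ptpn18 was 0.067 with median-of-ratios scaling and -0.49 to 0.83 without 1 mouse. The cause of these turns was not tested. No value depends on a known depth.

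Mice that share a replicate number in the titles were not more alike than others. The correlations given here are of log2(FPKM + 1) after each genotype's mean was subtracted, not of whole profiles. Same-numbered mice had correlations of 0.060, -0.062, 0.024 and -0.067 over 1534 genes, and only control mouse 1 correlated best with its own number. Such values cannot show whether the mice were paired by litter or handling. Library names hold a shared number for control mouse 1 and TNFdARE mouse 1 (r = 0.060) and for control mouse 4 and TNFdARE mouse 3 (r = 0.042), whose meaning the labels do not give. With the title number as a replicate block, 64 genes by genotype and 113 by sex had an unadjusted p under 0.05, and the differences by sex were -1.11 for Ptp4a2, -1.19 for Ptpn12 and -1.03 for Ptpn18. The genotype differences of Ptp4a2 and Ptpn12, 2.43 and 1.53, cannot change under this balanced block.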
